A study of Mus musculus with 4 samples.

Results

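The genes described here encode the nuclear end of canonical Wnt signalling: β-catenin (Ctnnb1) and its relative plakoglobin (Jup), the DNA-binding LEF/TCF factors Lef1, Tcf7l1 and Tcf7l2, and the Groucho corepressors Tle1, Tle2 and Tle3. All probe sets that the platform annotation gives to these 8 genes were taken, which gave 17 of the 22626 probe sets outside the array controls, and 8 of the 12393 genes named on the array. The match was made by gene ID, because the symbols Tcf3 and Tcf4 on this platform belong to E-protein genes and not to Tcf7l1 and Tcf7l2, which have also carried those names. Probe sets were not chosen by their signal.

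The arrays hold RNA of C2C12 cells, an established mouse myoblast line. The cells were held for 48 hours in semi-solid methyl cellulose, which keeps them from attaching and stops division in G0, a quiescent state from which they can return to the cycle. The Wnt3A group, with 2 arrays, was given purified Wnt3A protein at 50 ng/ml, and the control group, also with 2 arrays, is labelled as control. The labels call the arrays of a group biological replicates without telling whether the cultures were separate, so p-values measure the spread between these arrays.

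Without a Wnt signal, a cytoplasmic complex of Axin, APC and kinases marks β-catenin for degradation, while LEF/TCF factors sit on target genes with Groucho proteins and keep them silent. A Wnt ligand stops that degradation, and β-catenin protein enters the nucleus, displaces Groucho and recruits coactivators. The main switch is thus in the stability of a protein, which an array of RNA does not measure. In muscle precursors the pathway is known for its part in myogenic commitment and differentiation. β-catenin also links cadherins to the actin cytoskeleton, and plakoglobin binds cadherins at desmosomes and adherens junctions.

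Signals are on a log2 scale, so that a difference of 1 is a 2-fold change; the base is read from the values and not stated by the submitters. Differences are Wnt3A minus control, with the standard error (SE) and 95% confidence interval of limma's moderated fit to all 22626 probe sets. SDs are over n = 2 arrays a group. Array medians were between 4.15 and 4.22, and pairs of arrays correlated at r = 0.968 to 0.989 across probe sets. The Wnt3A arrays correlated with each other at r = 0.977 and the control arrays at r = 0.986. The highest value was that of Wnt3A replicate 1 with control replicate 1, and the lowest that of Wnt3A replicate 2 with control replicate 1. The Wnt3A arrays were thus less alike than some pairs across the groups. Of 8 myoblast marker genes, 7 lay above the dimmest 25% of probe sets, a mean signal of 2.01, and Msc did not. Most probe sets lie above that limit by definition, so the count alone does not check the identity of the cells. The summed log2 signal of the 8 genes was 47.8 and 42.1 with Wnt3A, against 45.2 and 45.9 in control, so that Wnt3A replicate 2 had the lowest. Myod1, a myogenic regulator gene, read 6.32 and 3.62 with Wnt3A, against 6.84 and 7.11 in control. Myf5, another, read 7.77 and 7.65 with Wnt3A, against 6.57 and 5.98 in control. The 8 differentiated muscle markers all lay above the dimmest 25% by mean signal. Their summed log2 signal was 51.9 and 49.8 with Wnt3A, against 55.0 and 65.1 in control. Of 5 macrophage and leukocyte markers, Ptprc and Itgam lay among the dimmest 25%, and the summed log2 signal was 11.1 and 13.0 with Wnt3A, against 11.1 and 11.1 in control. Csf1r read 3.53 and 5.19 with Wnt3A, against 3.26 and 3.39 in control. Cd68 read 3.03 and 3.13 with Wnt3A, against 2.82 and 2.78 in control. Both genes had both Wnt3A arrays above both controls, where 14.5% of all genes did, and Itgam had both below. The other 3 of the 5 were lower with Wnt3A, by differences of -0.05 for Ptprc, -0.005 for Adgre1 and -0.25 for Itgam. The median difference of this list was -0.005. Of 7 endothelial and epithelial markers, Pecam1, Cdh5, Epcam, Krt18 and Cdh1 lay among the dimmest 25%. Their list had a sum of 12.2 and 12.2 with Wnt3A, against 13.0 and 12.6 in control. Of 7 fibroblast and fat cell markers, 5 had both Wnt3A arrays under both controls, where 19.2% of the 12393 genes did (1 probe set per gene). Among the 5 was Adipoq, which like Thy1 lay among the dimmest 25%. The summed log2 signal of the 7 was 27.8 and 28.5 with Wnt3A, against 33.1 and 33.1 in control. The part of these markers in the results below was not tested. In a bulk sample, fewer cells of a type and less RNA per cell cannot be told apart.

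Among these genes, both probe sets of Tle1 were about 2.3-fold higher with Wnt3A, and Lef1 and 3 of the 4 probe sets of Tcf7l2 were also higher. Tle2 was the one gene that was lower with Wnt3A by over 2-fold. The RNAs of β-catenin itself, of Tcf7l1, of plakoglobin and of Tle3 differed by less than 0.5 on every probe set. None of the 17 probe sets passed an adjusted p of 0.05 in limma, where 0% of all probe sets passed, and their adjusted p ran from 0.708 to 0.997. At an unadjusted p under 0.05 stood 4 of the 17, of which 3 were higher and 1 lower, where 4.79% of all probe sets did. Both probe sets of Tle1 are among these 4. With 1 probe set per gene, 3 of the 8 genes stood there, 2 higher and 1 lower. Over all genes 2.18% stood there with Wnt3A higher and 2.84% with Wnt3A lower. With 2 arrays against 2, an exact permutation test of a single probe set could not give a two-sided p under 0.333.

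In 6 of the 17 probe sets the lower Wnt3A array exceeded the higher control array, where 15.0% of all probe sets did so. The reverse was seen in 1 of the 17, that of Tle2, where 17.7% of all probe sets had both Wnt3A arrays below both controls. Of the 6, 4 were at least 2-fold higher, where 1.02% of all probe sets were both that much higher and not overlapping. Tle2 was at least 2-fold lower, where 1.28% of all were in the same way. These 4 stand for 3 genes, since both probe sets of Tle1 are among them, and probe sets of one gene are not independent of each other. The median difference of the 17 probe sets was 0.21, beside -0.01 over all probe sets, and with 1 probe set per gene it was 0.13, beside -0.02 over all genes.

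**Figure D1:**
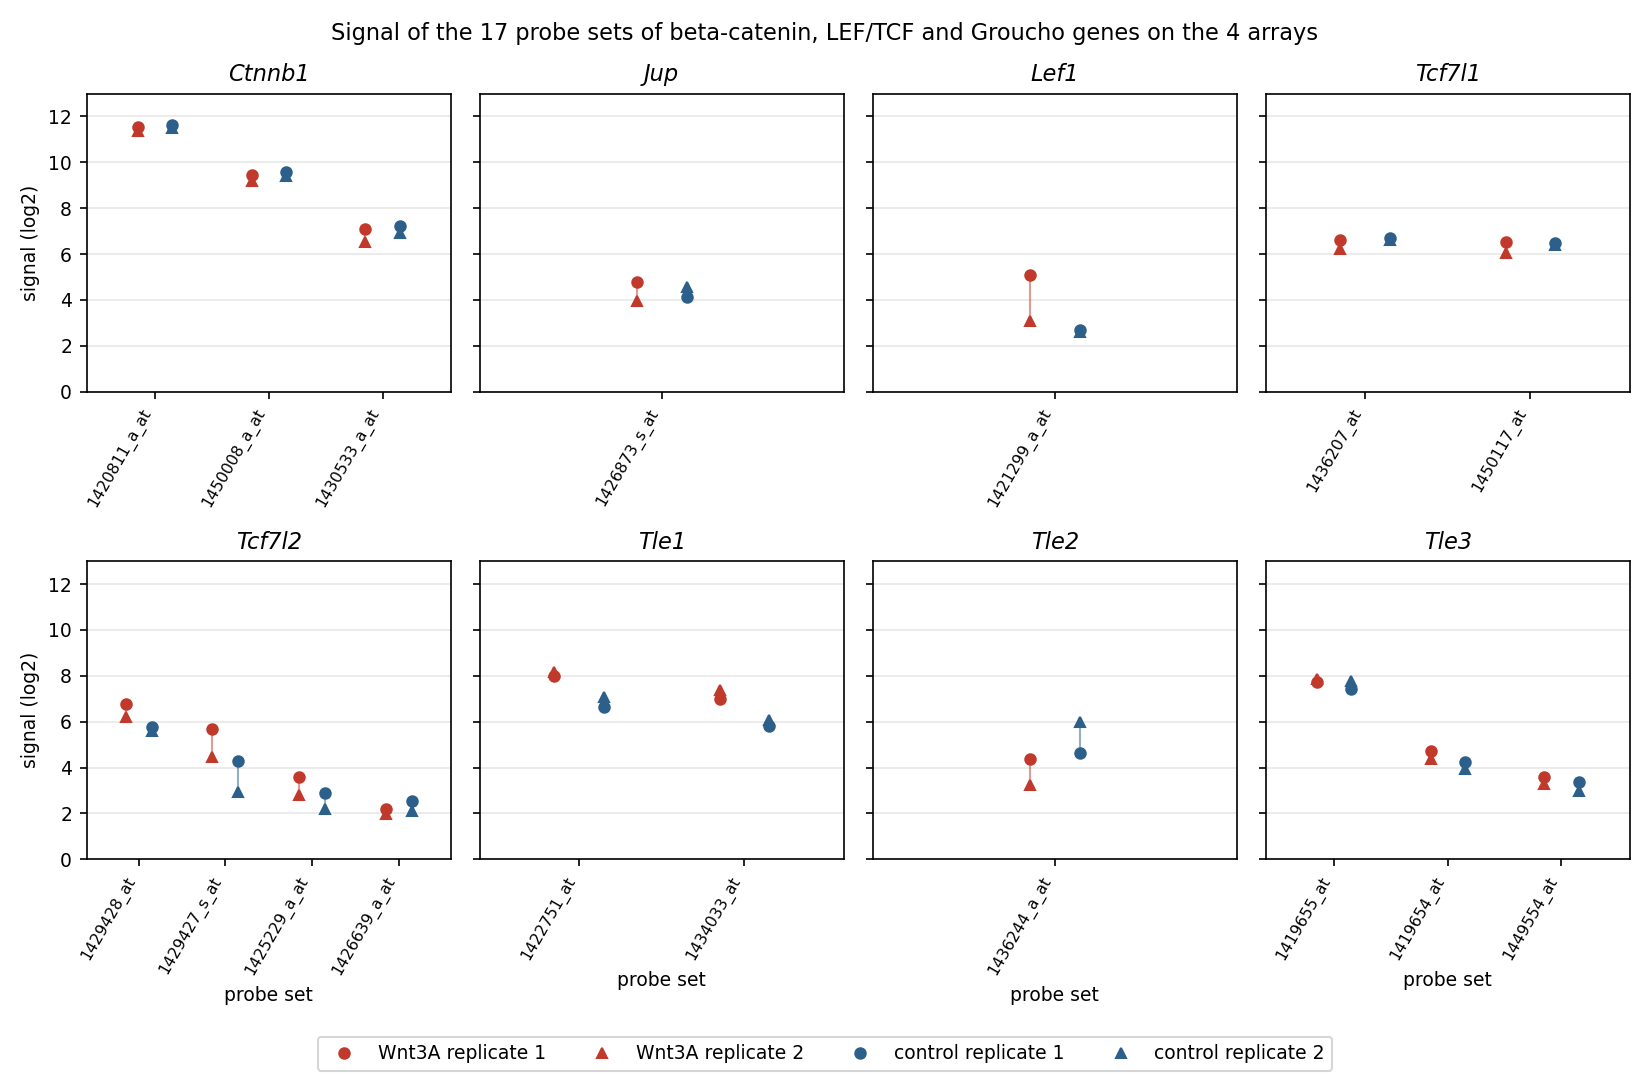
Log2 signal (vertical axis) of each of the 17 probe sets, by gene, on the Wnt3A arrays (red) and the control arrays (blue); circles are replicate 1, triangles replicate 2, and lines join the arrays of a group. The groups stand clear of each other for both Tle1 probe sets, by 0.91 at the narrowest, while for Lef1 the Wnt3A arrays lie at 5.09 and 3.10.

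The first question is whether the signal transducer itself changed at the level of RNA. Ctnnb1 was measured by 3 probe sets, all of the type that Affymetrix marks as reading several transcripts of a gene. On 1420811_a_at it was at 11.53 and 11.35 with Wnt3A, against 11.64 and 11.51 in control. On 1450008_a_at the Wnt3A arrays read 9.43 and 9.17, against 9.56 and 9.39 on the control arrays. The remaining one, 1430533_a_at, read 7.10 and 6.51 with Wnt3A, against 7.22 and 6.94 in control. The groups overlapped on all 3, although each was slightly lower on average with Wnt3A.

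The differences of Ctnnb1 were -0.14 (SE 0.16), -0.18 (SE 0.20) and -0.28 (SE 0.29). For the brightest probe set the 95% confidence interval ran from -0.55 to 0.27, which is from 0.68 to 1.21 times the control level. For 1450008_a_at it ran from 0.62 to 1.27 times and for 1430533_a_at from 0.49 to 1.38 times the control level. A change of 2-fold in either direction therefore lay outside the interval on both brighter probe sets, and changes within the intervals could not be resolved with these arrays. When the arrays were scaled to their hybridization controls, RNAs added in fixed amounts, the differences of all 3 lay above 0, at 0.18, 0.14 and 0.04, while the median of all probe sets moved to 0.31.

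Jup encodes plakoglobin, an armadillo protein like β-catenin that works mostly at cell junctions. Its probe set 1426873_s_at read 4.80 and 3.94 with Wnt3A, against 4.12 and 4.55 in control. The Wnt3A arrays lay on either side of the controls, and the difference was 0.04 (SE 0.37, 95% confidence interval -0.90 to 0.98). The suffix of the probe set marks it as one that can read transcripts of more than one gene. Its sign turned without Wnt3A replicate 1 (-0.39) or without control replicate 1 (-0.18).

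The LEF/TCF factors differed in how they read. Lef1, which is best known as an activating partner of β-catenin and is itself a target of the pathway in several tissues, was at 5.09 and 3.10 with Wnt3A, against 2.68 and 2.59 in control. Both Wnt3A arrays lay above both controls, but replicate 1 stood far higher than replicate 2. The means were 4.09 ± 1.41 with Wnt3A and 2.64 ± 0.07 in control (SD, n = 2). The difference of 1.46 (SE 0.65) corresponds to 2.74-fold, with a 95% confidence interval of 0.88 to 8.54-fold. It was 0.46 without Wnt3A replicate 1 and 2.45 without Wnt3A replicate 2, so that its size rests on which Wnt3A array is used. Its control mean lay not far above the limit of the dimmest 25%, and no detection calls were used here.

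Tcf7l2, a LEF/TCF factor that can activate or repress, was measured by 4 probe sets that did not read alike. On 1429428_at it was at 6.77 and 6.20 with Wnt3A, against 5.76 and 5.59 in control. On 1429427_s_at, designed from the same sequence record but, like that of Jup, of a type that can read more than one gene, the Wnt3A arrays read 5.66 and 4.44, against 4.30 and 2.96 on the control arrays. In both probe sets each Wnt3A array was above each control array, and within each group replicate 1 was the higher. The dimmer 1425229_a_at read 3.57 and 2.81 with Wnt3A, against 2.90 and 2.19 in control, with overlapping groups. The fourth, 1426639_a_at, read 2.19 and 1.96 with Wnt3A, against 2.54 and 2.09 in control, near the limit of the dimmest 25%.

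For 1429428_at the difference was 0.81 (SE 0.29), or 1.75-fold with a 95% confidence interval of 1.06 to 2.90-fold, at an unadjusted p of 0.0347 and an adjusted p of 0.984 in limma. For 1429427_s_at it was 1.42 (SE 0.60), and for 1425229_a_at 0.64 (SE 0.37). That of 1426639_a_at was -0.24 (SE 0.21). The difference of 1425229_a_at was 0.27 without Wnt3A replicate 1 and 1.02 without Wnt3A replicate 2. Leaving out 1 array moved 1429428_at to between 0.53 and 1.09. The corresponding range of 1429427_s_at was 0.75, without control replicate 2, to 2.09, without control replicate 1. Between arrays of the same number, replicate 1 first, the differences were 1.36 and 1.49 on 1429427_s_at and 0.67 and 0.62 on 1425229_a_at. They were 1.01 and 0.62 on 1429428_at and -0.35 and -0.13 on 1426639_a_at. The labels do not say that the number marks a shared culture. Whether the probe sets read different transcripts of Tcf7l2 was not tested.

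Tcf7l1, known mainly as a repressor of Wnt targets that β-catenin relieves, did not differ beyond the spread of its arrays. On 1436207_at it read 6.62 and 6.23 with Wnt3A, against 6.69 and 6.60 in control. On 1450117_at the values were 6.51 and 6.03 with Wnt3A, against 6.48 and 6.38 in control. The groups overlapped on both, and Wnt3A replicate 2 was the lowest array on both. The differences were -0.22 (SE 0.25, 95% confidence interval -0.85 to 0.42) and -0.16 (SE 0.27, 95% confidence interval -0.84 to 0.52), and both lay above 0 after scaling to hybridization controls (0.10 and 0.16).

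**Figure D2:**
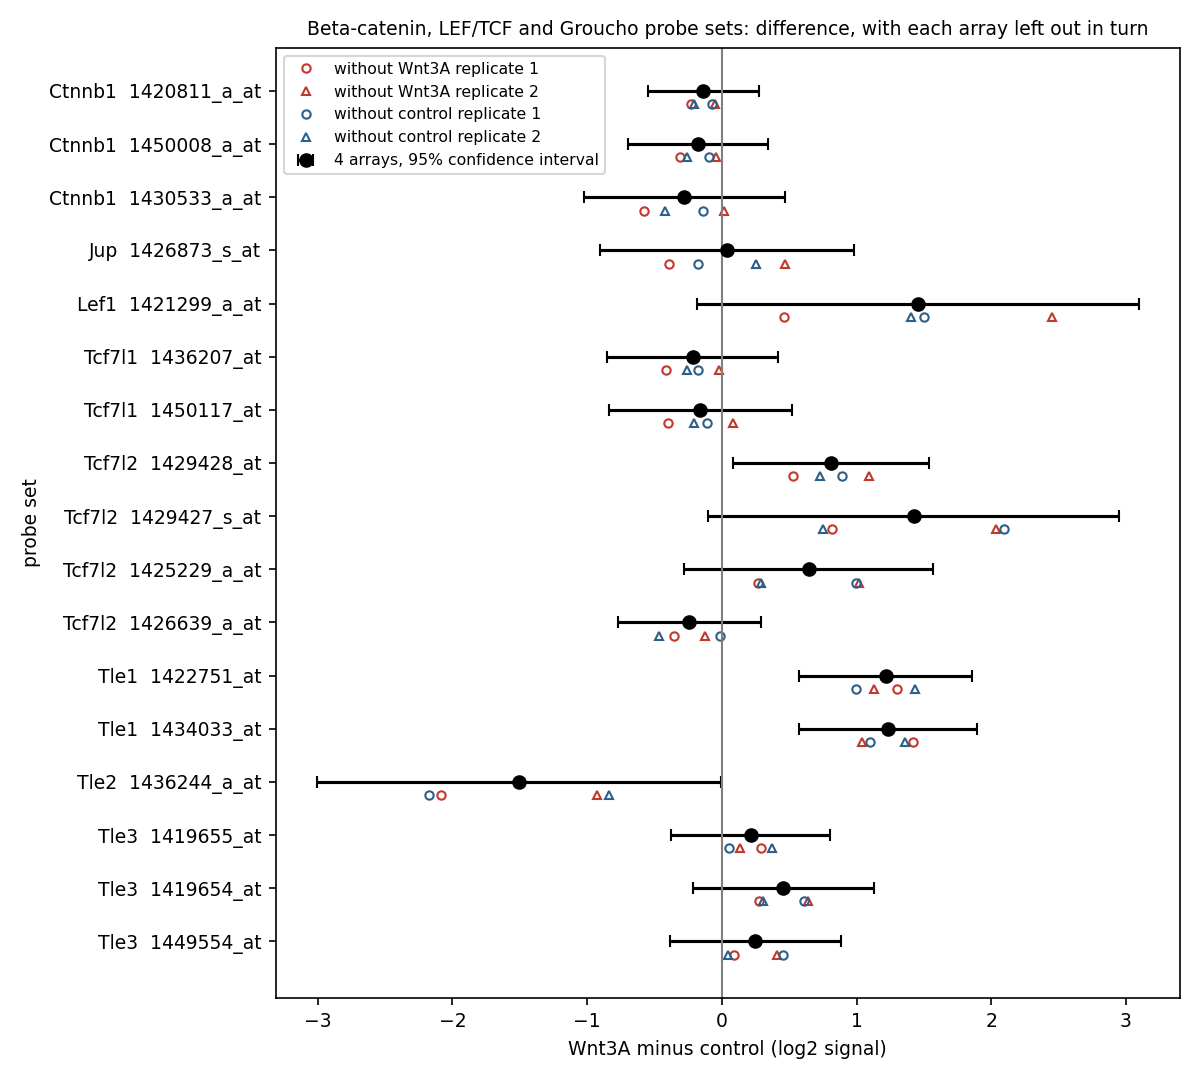
Difference Wnt3A minus control in log2 signal (horizontal axis) for each of the 17 probe sets, with its 95% confidence interval in black and, below it, the difference with 1 array left out. The intervals of both Tle1 probe sets and of Tcf7l2 1429428_at lie above 0 and that of Tle2 just below it; the left-out values of Lef1 spread from 0.46 to 2.45.

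The Groucho genes encode corepressors that bind LEF/TCF and many other factors and recruit histone deacetylases. Both probe sets of Tle1 were higher with Wnt3A. On 1422751_at it was at 7.99 and 8.16 with Wnt3A, against 6.64 and 7.08 in control, and on 1434033_at it was at 7.00 and 7.38 with Wnt3A, against 5.83 and 6.09 in control. On both probe sets the lower Wnt3A array was 0.91 above the higher control array. The means on 1422751_at were 8.07 ± 0.12 with Wnt3A and 6.86 ± 0.31 in control (SD, n = 2), and those on 1434033_at were 7.19 ± 0.27 with Wnt3A and 5.96 ± 0.19 in control.

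The Tle1 difference was 1.22 (SE 0.25) on 1422751_at, which is 2.32-fold with a 95% confidence interval of 1.49 to 3.63-fold, and 1.23 (SE 0.26) on 1434033_at, which is 2.35-fold with an interval of 1.49 to 3.71-fold. Their unadjusted p were 0.00430 and 0.00457, and the adjusted p in limma was 0.708 for both. With each array left out in turn the difference stayed between 0.997 and 1.44 on the first and between 1.04 and 1.42 on the second. Of all probe sets, 0.862% differed by at least as much as 1422751_at in that direction.

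Tle2 went the other way. Its probe set 1436244_a_at read 4.39 and 3.23 with Wnt3A, against 4.64 and 5.98 in control. The Wnt3A arrays lay below the controls, but by 0.25 only between the nearest arrays, and the arrays of each group were more than 1 apart. The difference was -1.51 (SE 0.59, 95% confidence interval -3.01 to -0.01), at an unadjusted p of 0.0494 and an adjusted p of 0.984 in limma. It was -2.09 without Wnt3A replicate 1, -0.93 without Wnt3A replicate 2, -2.18 without control replicate 1 and -0.84 without control replicate 2. The order of the arrays, with control replicate 2 highest and Wnt3A replicate 2 lowest, was also that of the summed signal of the differentiated muscle markers, of which 7 of 8 had both Wnt3A arrays below both controls, where 19.2% of all genes did, and 0 were among the dimmest 25%. Their part in the Tle2 result was not tested.

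Tle3 was slightly higher with Wnt3A on each of its 3 probe sets. On 1419655_at it read 7.73 and 7.88 with Wnt3A, against 7.43 and 7.75 in control, a difference of 0.21 (SE 0.23). On 1419654_at it read 4.74 and 4.37 with Wnt3A, against 4.25 and 3.94 in control, a difference of 0.46 (SE 0.27). On 1449554_at the values were 3.59 and 3.27 with Wnt3A, against 3.38 and 2.98 in control, a difference of 0.25 (SE 0.25). Only on 1419654_at did the groups not overlap, by 0.12, and all 3 confidence intervals included 0. With 1 array left out the differences ran from 0.052 to 0.38 on 1419655_at and from 0.28 to 0.64 on 1419654_at. On 1449554_at they ran from 0.048 to 0.45. The lowest was without control replicate 1 on 1419655_at, without Wnt3A replicate 1 on 1419654_at and without control replicate 2 on 1449554_at. Between arrays of the same number, replicate 1 first, the differences were 0.30 and 0.13 on 1419655_at. They were 0.49 and 0.43 on 1419654_at and 0.21 and 0.29 on 1449554_at. Whether the number marks a shared culture is not given.

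By median gap, arrays of one group were further apart on these probe sets than on the array as a whole. The median gap between the Wnt3A arrays was 0.39 over the 17 probe sets, against 0.24 over all, and that between the control arrays was 0.31, against 0.21 over all. The medians over all include the dimmest 25%, where none of the 17 lay, so the signal ranges compared were unlike. Several of the 17 also read the same gene. Replicate 2 was the lower Wnt3A array in 14 of the 17 probe sets and the lower control array in 12. The 3′ to 5′ differences of the array's RNA controls overlapped between groups: the Gapdh control read 0.16 and 0.16 higher at its 3′ than its 5′ end with Wnt3A, against 0.09 and 0.31 in control, and the β-actin control 0.80 and 0.89 with Wnt3A, against 0.70 and 0.93 in control. The mean of the 18 hybridization control probe sets was 7.35 and 7.00 with Wnt3A, against 7.42 and 7.57 in control, so that both Wnt3A arrays lay below both controls and Wnt3A replicate 2 had the lowest; its part in the results was tested only by scaling to it.

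Scaling the arrays to those hybridization controls changed calls. Then 4 of the 17 probe sets passed an adjusted p of 0.05 in limma, where 2.07% of all probe sets did. They were Lef1 (1.77, adjusted p = 0.00137), Tcf7l2 1429427_s_at (1.74, adjusted p = 0.00288) and both of Tle1 (1.54, adjusted p = 0.00437, and 1.55, adjusted p = 0.00604). That scaling adds the same 0.32 to every difference, and in its fit limma gave every probe set a spread that depends on mean signal alone, so that the spread between a probe set's own arrays no longer counted. Among all its calls, 353 were higher and 116 lower with Wnt3A.

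**Figure D3:**
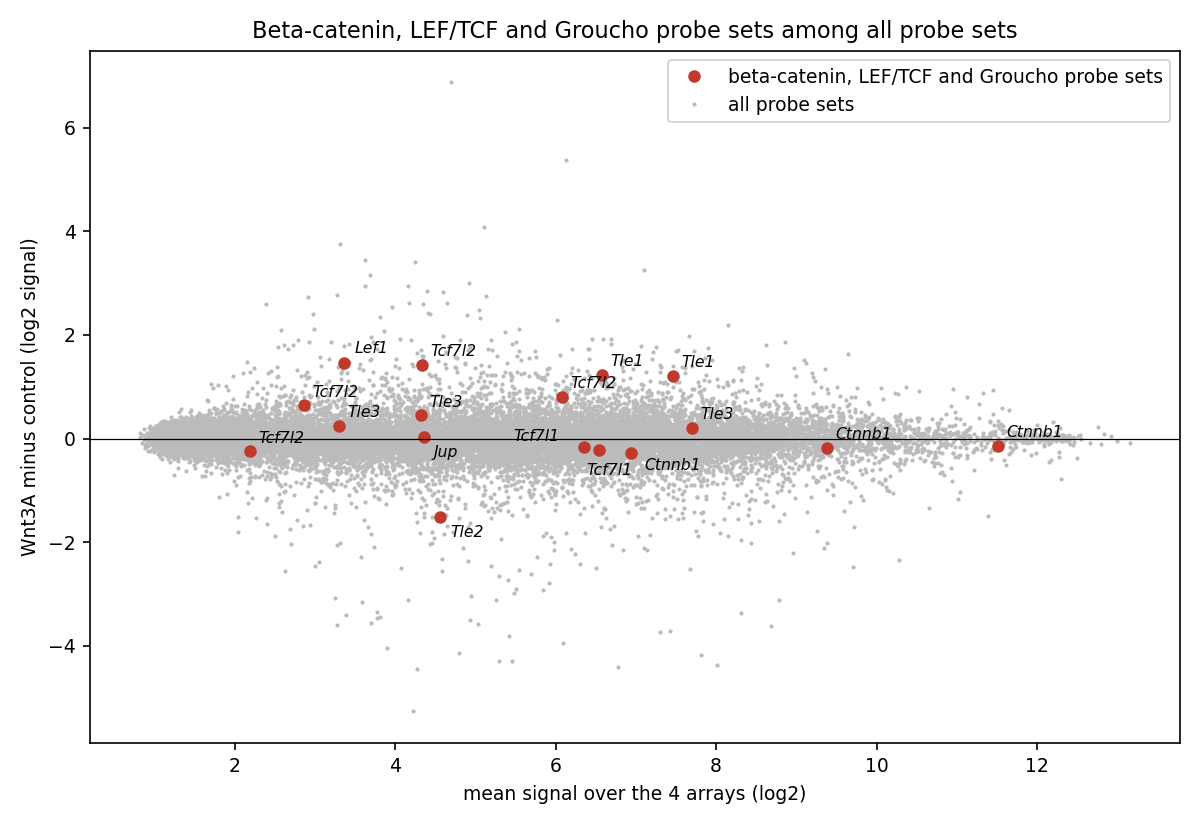
Difference Wnt3A minus control in log2 signal (vertical axis) against mean signal over the 4 arrays (horizontal axis) for all 22626 probe sets (grey) and the 17 of the β-catenin, LEF/TCF and Groucho genes (red, with gene names). Ctnnb1 lies near 0 at high signal, Tle1 at 1.22 and 1.23, and Tle2 at -1.51.

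The pattern of Lef1 over the 4 arrays, high on Wnt3A replicate 1 and low on the others, was most like those of Atp10a, a phospholipid transporter gene, Nr2f1, a nuclear receptor gene, and Sema3a, a guidance factor gene. Likeness was the root mean square difference of signals after each probe set's mean was taken off, over the 4 arrays and among 15613 other probe sets with 1 named gene outside the dimmest 25%. It was 0.12 for Atp10a, 0.15 for Nr2f1 and 0.22 for Sema3a. Nr2f1 read 8.78 and 6.48 with Wnt3A, against 6.45 and 6.13 in control, so that it too had 1 high Wnt3A array.

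The promoters of the 8 genes were searched for the core sequence that LEF/TCF factors are known to bind, CTTTG followed by 2 bases that are each A or T, on both strands, because some of these genes are known to be targets of the factors they encode. The windows were the 250 bases before each annotated start in RefSeq (GRCm38.p6). Of 13 windows for the 8 genes 2 held a match, where 14.8% of all 32851 windows did. One lay before a start of Lef1 downstream of its first starts and the other before the later of both starts of Tcf7l2. In human LEF1 an internal promoter is known to give a form without the β-catenin-binding region, and which starts were in use in these cells was not measured. The first window of Lef1, shown for comparison, held no match. Capitals mark the match:
Lef1 first start, chr3:131110047-131110296, plus strand: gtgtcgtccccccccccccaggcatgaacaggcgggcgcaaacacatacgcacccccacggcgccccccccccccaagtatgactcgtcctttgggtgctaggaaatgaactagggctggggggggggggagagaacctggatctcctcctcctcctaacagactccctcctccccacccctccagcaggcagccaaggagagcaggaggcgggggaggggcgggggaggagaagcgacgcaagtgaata
Lef1 later start, chr3:131156044-131156293, plus strand: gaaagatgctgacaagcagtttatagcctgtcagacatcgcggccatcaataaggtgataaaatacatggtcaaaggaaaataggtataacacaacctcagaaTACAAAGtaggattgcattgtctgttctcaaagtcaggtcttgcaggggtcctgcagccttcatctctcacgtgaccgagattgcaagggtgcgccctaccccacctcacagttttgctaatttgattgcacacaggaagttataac
Tcf7l2 later start, chr19:55895071-55895320, plus strand: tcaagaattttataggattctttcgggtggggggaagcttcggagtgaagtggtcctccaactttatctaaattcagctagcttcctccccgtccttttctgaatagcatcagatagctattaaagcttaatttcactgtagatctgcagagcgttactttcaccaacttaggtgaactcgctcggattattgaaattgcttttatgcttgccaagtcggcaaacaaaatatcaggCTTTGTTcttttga

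The match began 147 bases before the later start of Lef1, on the minus strand, and 14 bases before that of Tcf7l2, on the plus strand. The windows of Tle1, Tle2, Tle3, Ctnnb1, Jup and Tcf7l1 held none, which says only that these letters are absent from those windows.

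Other genes of the same machinery were read from lists, with 1 probe set per gene, that of highest mean signal. None of the genes in these lists passed an adjusted p of 0.05 in limma; at an unadjusted p under 0.05 stood 0 of the coactivators, 1 each of the corepressors and of the junction genes, both higher with Wnt3A, and 8 of the canonical targets, 7 higher and Dkk1 lower. Over all genes 2.18% stood there with Wnt3A higher and 2.84% with Wnt3A lower. Among all 12393 genes the groups did not overlap in 14.5% with Wnt3A higher and in 19.2% with Wnt3A lower. Of 10 nuclear coactivators of β-catenin on the array, 3 were higher and 7 lower with Wnt3A, at a median difference of -0.05, and the groups did not overlap in 1, which was higher with Wnt3A. The lowest unadjusted p among them belonged to the Mediator gene Med12 (-0.43, SE 0.36), the corepressor exchange gene Tbl1xr1 (-0.30, SE 0.32), Bcl9, which bridges β-catenin to Pygopus (0.22, SE 0.23), and the chromatin remodeller gene Smarca4 (-0.20, SE 0.24).

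Of 12 other Groucho genes, corepressors and inhibitors, the signal of 5 was higher and that of 7 lower with Wnt3A, at a median of -0.08. Ctbp2, a corepressor gene, was at 8.26 and 9.05 with Wnt3A, against 7.64 and 7.58 in control, a difference of 1.05 (SE 0.32, adjusted p = 0.931 in limma). Ctnnbip1, whose protein ICAT keeps β-catenin from LEF/TCF, was at 6.05 and 5.71 with Wnt3A, against 6.24 and 6.71 in control, a difference of -0.60 (SE 0.29). Tle4, another Groucho gene, differed by 0.34 (SE 0.19) and the kinase gene Nlk, whose product phosphorylates LEF/TCF, by 0.37 (SE 0.23). The groups did not overlap in 6 of the 12: Ctbp2, Tle4 and Nlk were higher with Wnt3A, and Ctnnbip1, Cby1 and Ctbp1 lower.

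Junction genes that share β-catenin or plakoglobin were on the array for 19 genes, of which 8 lay among the dimmest 25%. In the list 13 were higher and 6 lower with Wnt3A, and the median was 0.03. The groups did not overlap in 6 that were higher and 2 that were lower. Of those higher, Ctnnd2 (0.02), Cdh5 (0.13) and Dsp (0.03) were among the dimmest 25%, and Dsc2 (0.07) lay near that limit. Cdh2 (0.45, SE 0.33) and Pkp4 were the others. Of those lower, Cdh4 (-0.12) was among the dimmest 25%, and Ctnnd1 (-0.16) was not. Pkp4, a plakophilin-family gene, was at 7.69 and 7.33 with Wnt3A, against 6.17 and 6.50 in control, a difference of 1.18 (SE 0.26, unadjusted p = 0.00563, adjusted p = 0.711 in limma). Pkp1, a desmosomal plakophilin gene, read 7.91 and 10.57 with Wnt3A, against 6.08 and 8.02 in control, so that replicate 2 was higher in both groups and the groups overlapped. Its difference was 2.19 (SE 1.03) and that of Pkp2 was 1.19 (SE 0.66). The desmosomal genes Dsp and Dsg2, whose proteins are partners of plakoglobin, were among the dimmest 25%, and Ctnna2, a neural α-catenin gene with a difference of 0.21 (SE 0.13), was as well.

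Canonical target genes read the output of the complex. Of 15 on the array 12 were higher with Wnt3A, at a median of 0.69. The groups did not overlap in 8 of those and in Dkk1 and Rnf43, which were lower and among the dimmest 25%. Axin2, the feedback scaffold gene, was at 5.13 and 6.14 with Wnt3A, against 3.25 and 3.21 in control (difference 2.41, SE 0.38). Nkd2, a feedback inhibitor gene, was at 6.42 and 4.54 with Wnt3A, against 3.06 and 2.66 in control. Ccn4 differed by 0.77 (SE 0.23) and Cd44 by 0.60 (SE 0.18). Thus of the Wnt3A arrays replicate 1 was the higher for Lef1 and Nkd2, and replicate 2 for Axin2.

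**Figure D4:**
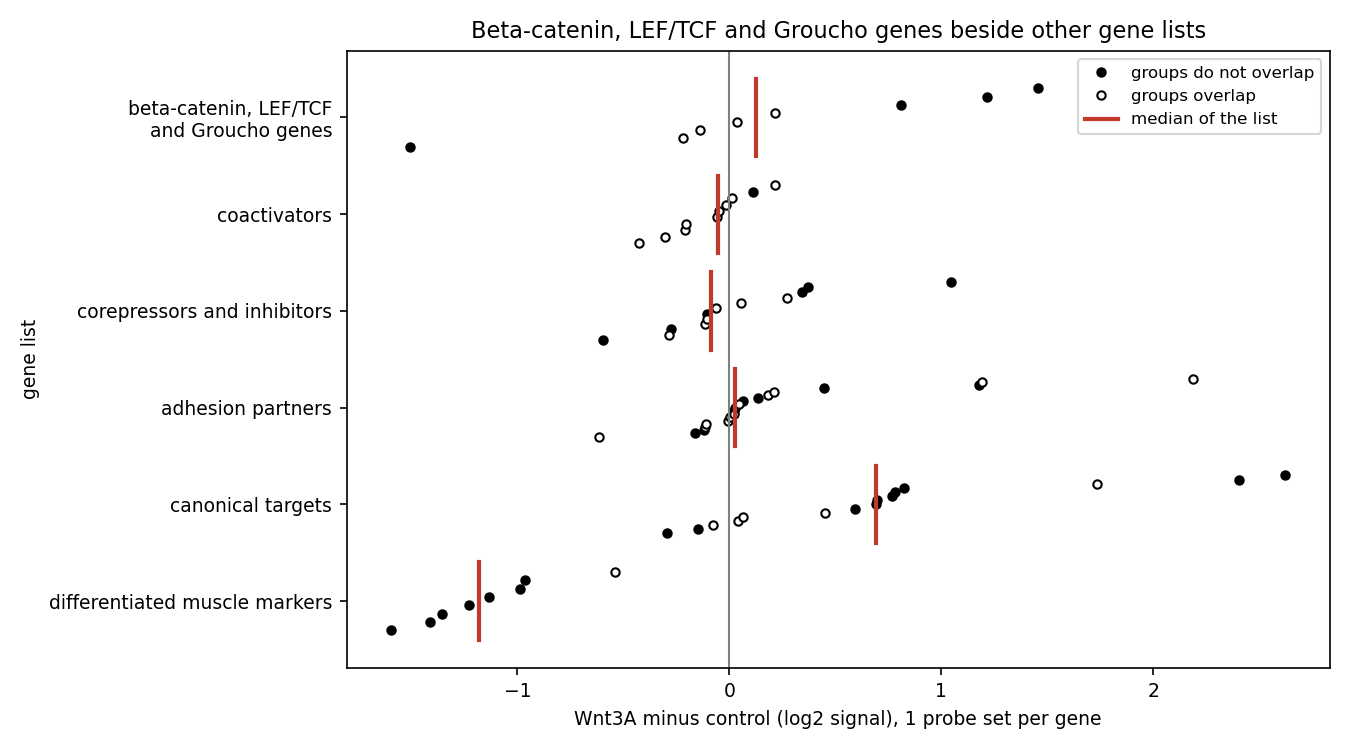
Difference Wnt3A minus control in log2 signal (horizontal axis), 1 probe set per gene, for the 8 genes and the lists set beside them; filled points are genes whose groups do not overlap, open points genes whose groups do, and red lines are list medians. The median is 0.13 for the 8 genes, 0.69 for the canonical targets and -1.18 for the differentiated muscle markers.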

How the data were processed

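Per the labels, total RNA was extracted with Trizol and labelled for Affymetrix arrays. The values as the authors deposited them, 1 for each probe set on an array, were taken as a log2 signal from their range. The submitters' processing notes list GCOS and PLIER, without version or role. Normalization, filters and genome build: not given in the sources used here. Columns were matched to samples by name, groups and replicate numbers to the titles. The protocol text mentions Wnt3A for all samples, so the group follows title and treatment label.

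The table holds 22690 probe sets, 64 of them array controls. Of the others, 20380 have 1 gene symbol in the platform annotation, 691 have several and were not named, and 1555 are not listed; 20351 were matched by gene ID to RefSeq symbols (GRCm38.p6). Coordinates are given for the RefSeq promoter windows alone.

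All 22626 remaining probe sets were fitted in limma 3.58.1 (R 4.3.3), lmFit and eBayes with an intensity trend, group as the only term, two-sided, Benjamini-Hochberg over all; the moderated fit had 5.25 degrees of freedom. There was no filter on dim probe sets, and all 17 probe sets lay above the dimmest 25%. The number of arrays limits the precision. The genes, lists and rules were chosen with earlier results of these data known. Named beyond the 8 genes were up to 4 genes per list by lowest unadjusted p, Axin2 and the 3 genes nearest to Lef1. Myod1, Myf5, Csf1r, Cd68, Adgre1, Cby1, Ctbp1, Dkk1 and Rnf43 were named after their values were seen. So were the junction genes Dsp, Dsg2, Dsc2, Ctnnd1, Ctnnd2, Cdh2, Cdh4 and Cdh5, and the dim cell type markers. Lists are described by counts and medians, with no list test. The fit was also run on simulated data, in which arrays varied independently. In the real arrays, deviations of those with the same number correlated at r = 0.49, which the simulation left out. Alternatives were quantile normalization, a replicate block, median centring, scaling to hybridization controls, filters on dim probe sets, 1 probe set per gene with the dimmest 25% left out, no trend, and each array left out.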

Additional observations from a re-analysis of the deposited data

How the results depend on the processing

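Of the 17 probe sets, 10 kept the sign of their difference under each alternative that held them, namely those of Lef1, Tle1, Tle2 and Tle3 and 3 of the 4 of Tcf7l2, and 7 did not. The replicate block, the filters and the fit without a trend leave a difference as it is by construction; 4 of the 17 fall out with the dimmest 50%, and 1 probe set per gene keeps 8. Scaled to hybridization controls, 469 probe sets of the table and 4 of the 17 were called. The 4 were Lef1 (1.77), Tcf7l2 1429427_s_at (1.74), Tle1 1422751_at (1.54) and Tle1 1434033_at (1.55). The sign turned in the same setting for Ctnnb1 (0.18, 0.14 and 0.041), Tcf7l1 (0.10 and 0.16) and Tcf7l2 1426639_a_at (0.078), where each difference moves by the same amount by construction. Leaving out each array in turn gave -0.57 to 0.019 for Ctnnb1 1430533_a_at, -0.39 to 0.47 for Jup and -0.40 to 0.083 for Tcf7l1 1450117_at. With 1 array left out, the lone array of its group is assumed to vary like the others. With 1 probe set per gene and the dimmest 25% left out, 3 of 8 genes were higher with groups that did not overlap, since fewer probe sets are counted; the overlap of groups was not counted with an array left out. The replicate block called 84 probe sets of the table and 0 of the 17 (lowest adjusted p = 0.0779 in limma, Tcf7l2 1429427_s_at); deviations of arrays with the same number correlated at r = 0.49 across probe sets, and the labels do not say that the number marks a shared culture. Quantile normalization, median centring, the filters, 1 probe set per gene, the fit without a trend and each fit without 1 array called 0 of the table. The lack of detection calls in what was used here limits what can be said of Lef1 and of the dimmer probe sets of Tcf7l2.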
